A study of Mus musculus with 18 samples.

Results

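The genes described here are 8 transcription factors of the endocrine lineage of the pancreas, Neurog3, Neurod1, Pax4, Mafa, Isl1, Insm1, Nkx2-2 and Rfx6. They were taken by symbol, and all 8 were among the 23228 genes of the deposited expression table. The RNA-seq compared sorted cells with a whole organ, both from ICR mouse embryos. One sample was of GFP-positive cells sorted from E12.5 neural tube. These embryos carried 2.3Ptf1a-GFP, a transgene whose GFP is driven by an autoregulatory Ptf1a enhancer of 2.3 kb and a beta-globin basal promoter. The other sample was whole, unsorted E15.5 pancreas, and the genotype field reads WT for both. The labels name 2 libraries for each tissue, but the table holds 1 value per gene and tissue, so each value is taken as the authors' pooled value, with no SD and no test. Tissue, age, sorting, RNA extraction and library preparation, as far as the labels give them, all differ between the same 2 samples and cannot be told apart.

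In the developing pancreas a short pulse of Neurog3, a basic helix-loop-helix factor, commits progenitors of the epithelium to the endocrine fate. Neurog3 is known to switch on other factors, among them Neurod1, Insm1, Pax4, Nkx2-2 and Rfx6, and these with Isl1 and Mafa carry cells on to hormone-producing islet cells. Several of the same genes also work in neurons. Neurod1 and Insm1 act in newly born neurons, Isl1 in motor, sensory and some dorsal spinal neurons, and Nkx2-2 in ventral progenitors of the neural tube.

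Promoter windows from 250 bases before to 50 bases after the gene's start were taken from RefSeq on build GRCm38.p6, in which 5 of the 8 genes were matched, Neurog3, Neurod1, Isl1, Nkx2-2 and Rfx6. Windows for Pax4, Mafa and Insm1 were not used here. Those shown are of the 3 factors that were higher in pancreas by the rule given below, Neurog3, Nkx2-2 and Isl1, and of Rfx6, which was listed at 0 in the neural tube sample. Capitals mark each E-box, CANNTG, the core sequence that dimers of basic helix-loop-helix proteins such as Neurog3, Neurod1 and Ptf1a bind.

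Neurog3 promoter, chr10:62132840-62133139, plus strand: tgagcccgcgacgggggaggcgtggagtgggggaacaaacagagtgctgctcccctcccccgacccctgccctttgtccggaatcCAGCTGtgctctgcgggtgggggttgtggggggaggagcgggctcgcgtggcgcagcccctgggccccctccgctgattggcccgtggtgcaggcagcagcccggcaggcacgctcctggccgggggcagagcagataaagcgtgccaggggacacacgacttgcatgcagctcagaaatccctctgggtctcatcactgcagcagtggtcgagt
Nkx2-2 promoter, chr2:147186353-147186652, minus strand: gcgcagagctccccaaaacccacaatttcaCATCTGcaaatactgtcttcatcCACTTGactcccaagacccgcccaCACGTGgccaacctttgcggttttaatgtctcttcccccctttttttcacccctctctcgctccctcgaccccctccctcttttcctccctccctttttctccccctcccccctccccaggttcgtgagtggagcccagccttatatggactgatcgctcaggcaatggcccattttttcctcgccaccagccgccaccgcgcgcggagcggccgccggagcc
Isl1 promoter, chr13:116309639-116309938, minus strand: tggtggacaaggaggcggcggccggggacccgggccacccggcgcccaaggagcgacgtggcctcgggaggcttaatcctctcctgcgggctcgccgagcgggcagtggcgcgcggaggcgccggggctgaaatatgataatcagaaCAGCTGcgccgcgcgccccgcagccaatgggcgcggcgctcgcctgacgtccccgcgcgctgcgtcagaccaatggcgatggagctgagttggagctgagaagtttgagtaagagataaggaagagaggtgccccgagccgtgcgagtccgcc
Rfx6 promoter, chr10:51685268-51685567, plus strand: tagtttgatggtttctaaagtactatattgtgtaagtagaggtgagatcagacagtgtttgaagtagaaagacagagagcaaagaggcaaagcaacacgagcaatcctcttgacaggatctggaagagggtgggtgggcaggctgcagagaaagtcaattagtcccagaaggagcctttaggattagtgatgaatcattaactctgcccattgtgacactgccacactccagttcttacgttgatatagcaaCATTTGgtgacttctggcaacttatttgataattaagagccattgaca

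All 5 windows held at least 1 E-box, and so did 72.3% of the 32851 promoter windows of the table, so its presence does not set the 5 apart. Positions are counted from the gene's start as base 1, with no base 0. The form CAGCTG stood at -165 in Neurog3 and at -103 in Isl1, and 16.3% of all windows held it. The form CAGATG, which Neurog and Neurod factors prefer, was found in Nkx2-2, on the minus strand at -220, and in 17.2% of all windows. The Nkx2-2 window held 3 E-boxes and that of Neurod1 a single one, at -242. The core TGGGAA, which Rbpj and Rbpjl bind, was in 0 of the 5 windows and in 25.6% of all windows. GTTGCC, a core of the sites that RFX proteins bind, was found in the Rfx6 window on the minus strand at 18, and in 12.5% of all windows. The homeodomain core TAATTA stood at 32 in Rfx6, against 5.29% of all windows. AAGTG, a core of Nkx2 sites, was found in the Nkx2-2 window, on the minus strand at -197 where it overlaps an E-box, and in 46.4% of all windows. Both strands were searched for each motif. The windows of Neurog3, Isl1, Neurod1 and Nkx2-2 were GC-rich at 68.3%, 69.0%, 66.7% and 59.7%, whereas that of Rfx6 held 42.3% GC, and 14.9% of all windows held less.

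The 8 factors did not go one way. Neurog3, Nkx2-2 and Isl1 were higher in pancreas, Mafa was higher in the sorted neural tube cells, and the other 4 were not called. Values are in FPKM, read fragments scaled to transcript length and to the mapped fragments of the sample, and each difference is log2(FPKM + 1) in neural tube minus the same in pancreas. A gene was called higher in a sample when the difference was at least 2, which is 4 times on that scale, and its level in the higher sample reached 5 FPKM. Of the 8 factors 1 was called higher in neural tube, against 4.76% of all 23228 genes, and 3 were called higher in pancreas, against 5.50%. Among the 14303 genes that reached 1 FPKM in neural tube or pancreas, all 8 included, the shares were 7.73% and 8.94%. Of all calls 46.4% were toward neural tube, and 66.8% after rescaling to equal totals or 58.8% when the 50 highest genes were left out of the totals. The median difference of the 8 was -2.27, beside -0.07 over those 14303 genes. The factors were chosen with earlier results of these data known, and the shares are given as the background only.

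**Figure D1:**
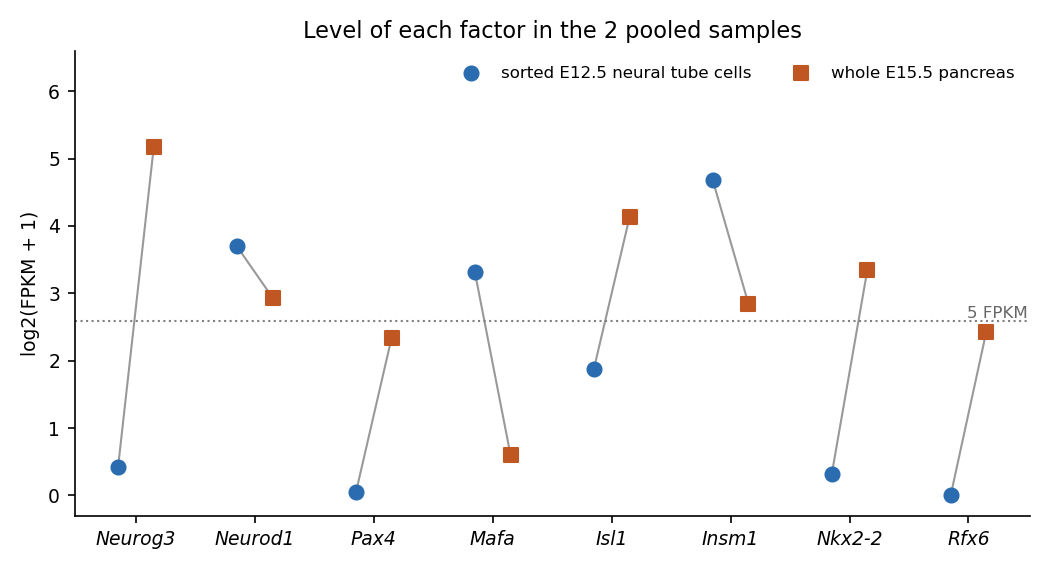
Level of each factor, as log2(FPKM + 1), in sorted neural tube cells (blue circles) and whole pancreas (orange squares), 1 pooled value each, with a dotted line at 5 FPKM. Neurog3, Nkx2-2, Isl1, Pax4 and Rfx6 stood higher in pancreas, and Mafa, Insm1 and Neurod1 stood higher in neural tube.

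Neurog3, the factor that starts the endocrine programme, had the highest level of the 8 in pancreas and stood below 1 FPKM in the sorted cells. It stood at 0.341 FPKM in neural tube, against 35.0 FPKM in pancreas, a difference of -4.75. That level was above 40.2% of all genes in neural tube and above 90.4% in pancreas. The call held under all 10 alternatives, which changed the pseudocount, the minimum, the scaling or the threshold. In bulk samples such as these, fewer cells with a transcript and less of it per cell cannot be told apart.

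Nkx2-2, a homeodomain factor needed to form beta cells and also active in ventral neural progenitors, was at 0.243 FPKM in neural tube and 9.19 FPKM in pancreas. The difference was -3.04, and the call was lost with a pseudocount of 5 FPKM (-1.44) and with a minimum of 10 FPKM. From the smallest steps of the values, both Neurog3 and Nkx2-2 held about 12 fragments in the neural tube sample, so these 2 low values rest on few reads.

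Rfx6 and Pax4 were seen in pancreas at levels just under the minimum of the rule. Rfx6, a winged-helix factor that acts after Neurog3 in islet formation, was listed at 0 in neural tube and at 4.40 FPKM in pancreas. A listed 0 does not by itself show absence. Eif3j, which codes for a part of the translation initiation machinery that all cells use, was likewise listed at 0 in neural tube and stood at 47.1 FPKM in pancreas. Pax4, a paired-homeodomain repressor that favours beta and delta over alpha cells, was at 0.0340 FPKM in neural tube, about 1.1 fragments, and at 4.07 FPKM in pancreas. Both differed by more than 4 times on the log2(FPKM + 1) scale, and both were called higher in pancreas when the minimum of 5 FPKM was left out. Rfx6 was the closest below that minimum and Mafa, at 8.93 FPKM in neural tube, the closest above it among the called factors.

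Neurod1 and Insm1, which also act in newly born neurons, were present in both samples. Neurod1, a target of Neurog3 in the pancreas and a differentiation factor of many neurons, had 12.0 FPKM in neural tube, against 6.63 FPKM in pancreas. These values lie within 2 times of each other, with a ratio of 1.80 and a difference of 0.76, and no alternative gave a call. Insm1, a zinc finger repressor of endocrine and neuronal progenitors, had 24.6 FPKM in neural tube, against 6.19 FPKM in pancreas. It was the most abundant of the 8 in the sorted cells, and its difference of 1.83 fell short of the rule. It passed the rule with the samples rescaled to equal totals (2.40), with that rescaling made without the 50 highest genes of each sample (2.16), and with a threshold of 2 times.

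Isl1, a LIM homeodomain factor of islet cells, pancreatic mesenchyme and several neuron classes, was at 2.67 FPKM in neural tube and 16.5 FPKM in pancreas. Its difference of -2.25 was the smallest among the 4 called factors. The call was lost with equal totals (-1.72), with equal totals without the 50 highest genes (-1.95), with a pseudocount of 5 FPKM (-1.48) and at 8 times.

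Mafa, a basic leucine zipper factor that activates insulin genes in maturing beta cells, was the only factor called higher in neural tube. It had 8.93 FPKM in neural tube, against 0.513 FPKM in pancreas, where it was the lowest of the 8 and held about 23 fragments. Its difference was 2.71, and the call was lost with a pseudocount of 5 FPKM (1.34), a minimum of 10 FPKM and a threshold of 8 times.

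The order of levels was unlike in the 2 samples. In neural tube it ran from Insm1 through Neurod1, Mafa and Isl1 down to Neurog3, Nkx2-2, Pax4 and Rfx6. In pancreas it ran from Neurog3 through Isl1, Nkx2-2, Neurod1 and Insm1 to Rfx6, Pax4 and Mafa. With 1 value a tissue, no spread is known for neighbours in either order, and Neurod1 at 6.63 and Insm1 at 6.19 FPKM in pancreas, for example, differed by very little.

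**Figure D2:**
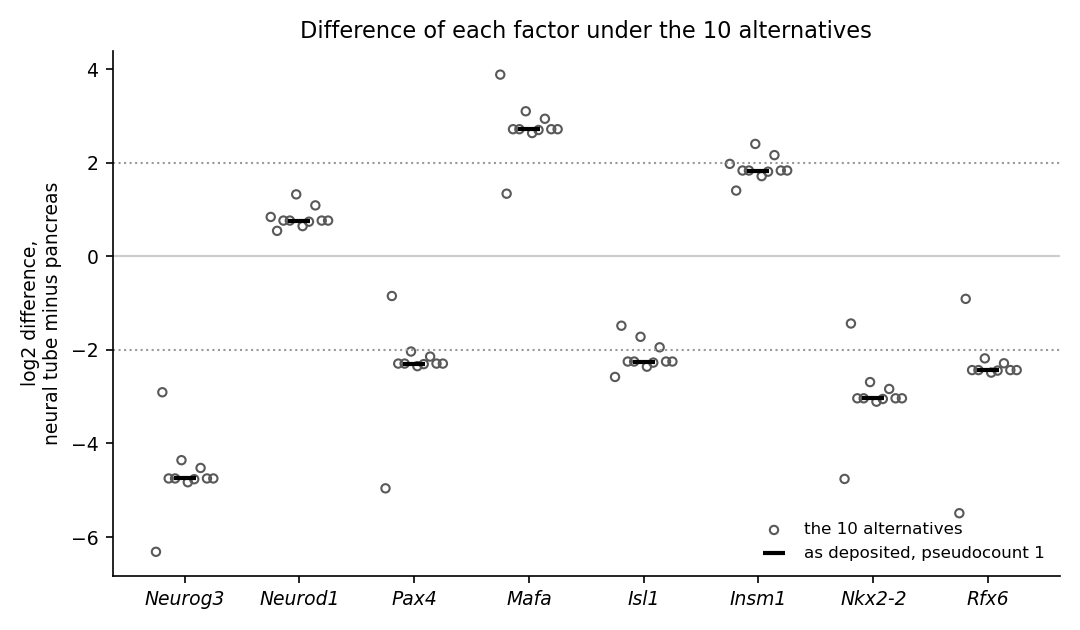
Difference of each factor in log2, neural tube minus pancreas, as deposited (black bars) and under the 10 alternatives (circles), of which the 2 other minimums and 2 other thresholds leave the difference as it is. Dotted lines mark 2 and -2. All 8 factors kept their sign, which only the 4 rescalings could have changed. All but Neurog3 and Neurod1 crossed a line under some settings.

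Within several gene families the samples used different paralogs. Shares of a family's summed FPKM do not depend on how the samples are scaled, whereas counts of called paralogs can. Counts of called genes, here and in the lists below, are to be read beside the shares called over all 23228 genes. Those shares were 4.76% toward neural tube and 5.50% toward pancreas. Of the summed FPKM of 7 Neurog and Neurod genes, Neurog3 and Neurod1 together made up 9.14% in neural tube, against 98.6% in pancreas. Neurog3 alone made up 0.254% in neural tube and 82.9% in pancreas. The paralogs seen in the sorted cells were those used in neurons. Neurod6 was at 55.3 FPKM in neural tube, against 0.00962 FPKM in pancreas, and Neurod2 at 30.4 against 0.567 FPKM. Neurog2 was at 29.3 FPKM and Neurog1 at 5.68 FPKM in neural tube, with Neurog2 listed at 0 and Neurog1 at 0.0153 FPKM in pancreas. Of the 5 paralogs, 4 were called higher in neural tube and 0 in pancreas.

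LIM homeobox genes showed the same kind of split. Isl1 made up 1.38% of the summed FPKM of 12 such genes in neural tube, against 85.7% in pancreas. Lhx1, Lhx5 and Lmx1b, which were called higher in neural tube, took most of the rest there. Lhx1 was at 91.1 FPKM in neural tube against 0.309 FPKM in pancreas, Lhx5 at 80.7 against 0.0287 FPKM and Lmx1b at 14.9 against 0.241 FPKM. Isl2, the nearest paralog of Isl1, was at 0.720 FPKM in neural tube and 0.251 FPKM in pancreas. Of the 11 paralogs 3 were called higher in neural tube and 0 in pancreas.

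In the Pax family Pax4 made up 0.0157% of 9 genes in neural tube and 27.0% in pancreas. Pax6, which works in islet cells and in the neural tube, was the other Pax gene of the pancreas, at 15.52 FPKM in neural tube and 10.83 FPKM in pancreas, and was not called. Pax2, Pax3, Pax5, Pax7 and Pax8 were called higher in neural tube, where Pax2 had 112 FPKM, and Pax5, the highest of them in pancreas, stood there at 0.0600 FPKM. With a pseudocount of 5 FPKM the count of Pax relatives called was 3 and not 5.

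Mafa made up 20.6% of the summed FPKM of 7 large and small Maf genes in neural tube and 1.51% in pancreas. Maf, another large Maf factor, was at 2.33 FPKM in neural tube and 11.4 FPKM in pancreas. Of the small Maf genes at 5 FPKM or more, Mafg was at 15.7 and 6.47 FPKM in neural tube and pancreas, and Mafk at 3.52 and 5.39 FPKM. None of the 6 paralogs was called in either direction, and 1 was called higher in pancreas with a pseudocount of 0.1 FPKM or with the upper quartile.

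Nkx2-2 made up 6.39% of 10 Nkx2 and Nkx6 genes in neural tube and 37.5% in pancreas. Nkx6-1, a factor of beta cells and of ventral neural progenitors, was the other at 5 FPKM or more, with 1.33 FPKM in neural tube and 7.23 FPKM in pancreas, and was not called. Nkx2-3, a gene of gut and spleen mesenchyme, had 0.0356 FPKM in neural tube and 4.50 FPKM in pancreas.

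Rfx6 made up 0% of 10 genes for RFX factors and their partners in neural tube and 12.5% in pancreas. Rfx4, a neural RFX factor, was the reverse, at 19.95 FPKM in neural tube and 0.0127 FPKM in pancreas. It was the only one of the 9 others called, and with equal totals 2 were called higher in neural tube. Rfx1, Rfx3, Rfx7 and the RFX partner Rfxap were at 5 FPKM or more in neural tube, and Rfx5, Rfx7 and Rfxap were so in pancreas. Insm1 accounted for 99.8% of the Insm pair in neural tube and 99.9% in pancreas, as Insm2 was at 0.0592 FPKM in neural tube and 0.00665 FPKM in pancreas.

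**Figure D3:**
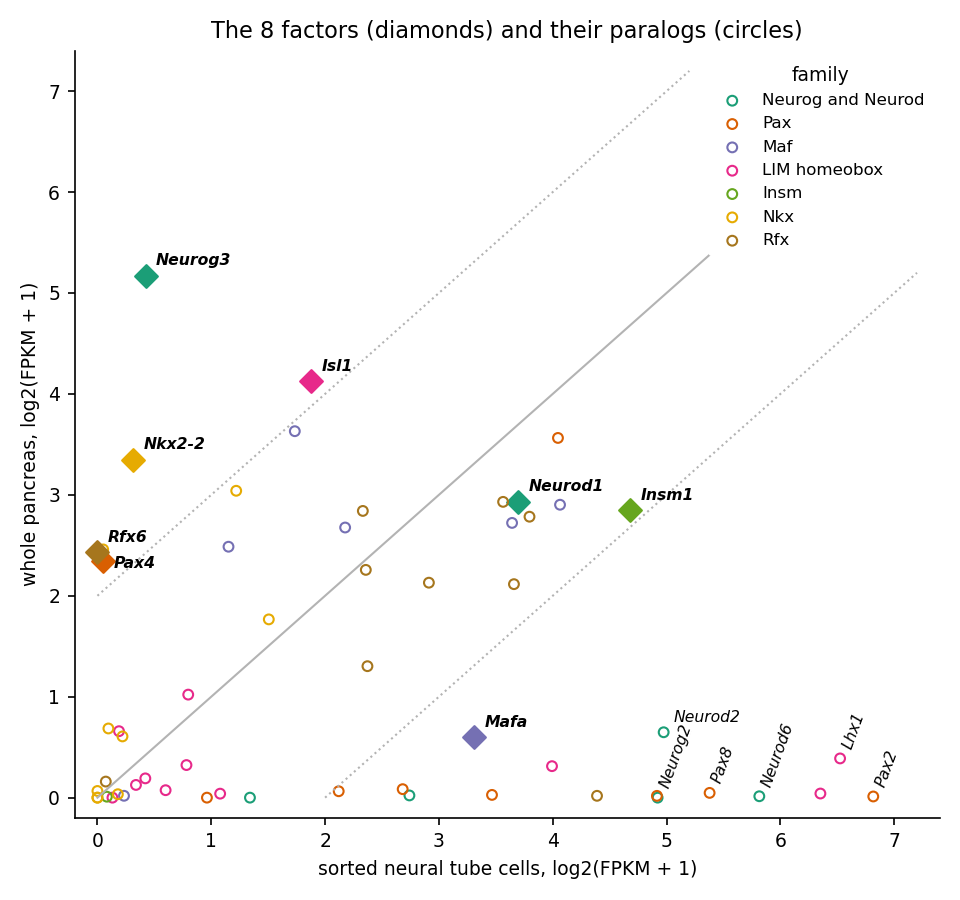
The 8 factors (diamonds) and their relatives (circles) by log2(FPKM + 1) in neural tube (x axis) and pancreas (y axis), coloured by family. Circles of the Rfx family include the partners Rfxank and Rfxap, which are not paralogs. The solid line marks equal levels and the dotted lines a difference of 2. Neurog3, Nkx2-2, Isl1, Pax4 and Rfx6 lie above the solid line, whereas most called paralogs lie along the bottom right.

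**Figure D4:**
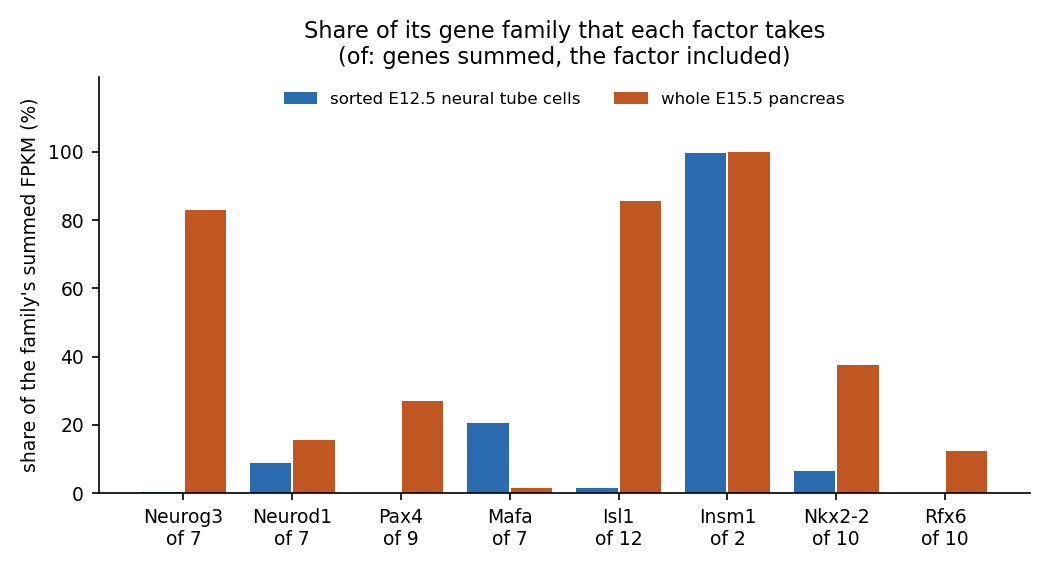
Share of the summed FPKM of its gene family that each factor made up, in percent, in neural tube (blue, left) and pancreas (orange, right), with the number of genes summed under each name. Neurog3 and Isl1 made up most of their families in pancreas and little in neural tube, and Insm1 nearly all in both. The genes summed for Rfx6 include the partners Rfxank and Rfxap.

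Other transcription factors that take part in endocrine development leaned toward neural tube. Of 27 such genes 12 were called higher in neural tube and 3, Pdx1, Hhex and Mlxipl, in pancreas, with a median of 1.62. Over all 23228 genes the shares called were 4.76% toward neural tube and 5.50% toward pancreas. The counts of the 27 genes were 6 and 0 with a pseudocount of 5 FPKM. The largest differences were those of Sox11 at 136 FPKM in neural tube against 2.84 FPKM in pancreas, Neurod2 as given above, Pou3f4 at 40.9 against 1.65 FPKM, and Pdx1 at 0.0293 against 13.9 FPKM. Sox11 is a factor of immature neurons as well, Pou3f4 marks neural tissue and alpha cells, and Pdx1 is needed to form the pancreas. Myt1, which works with Neurog3 in endocrine progenitors and also in neuronal ones, was at 48.3 FPKM in neural tube against 3.25 FPKM in pancreas.

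Of 14 genes known to act upstream of Neurog3, 2 were called higher in neural tube and 5 in pancreas, with a median of -0.39 that turned to 0.32 with equal totals. With a pseudocount of 5 FPKM 1 was called in each direction. Among the 5 were the endodermal factors Gata4, Gata6 and Foxa2, together with Pdx1, and Gata4 was at 0.237 FPKM in neural tube against 26.9 FPKM in pancreas. The 2 were the Notch ligand Dll1, at 44.3 FPKM in neural tube against 5.26 FPKM in pancreas, and the receptor Notch1, at 41.9 against 9.59 FPKM. Notch1 lay just past the threshold at 2.02, and the count toward neural tube was 1 after rescaling to the upper quartile or the median ratio. Hes1, the Notch effector that represses Neurog3, was at 22.6 FPKM in neural tube and 22.8 FPKM in pancreas.

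Most called genes among the products of endocrine cells were higher in pancreas. Of 32 hormones and genes of hormone processing and secretion, 2 were called higher in neural tube and 18 in pancreas, with a median of -2.74. These counts were 1 and 9 with a pseudocount of 5 FPKM, and 4 and 17 with equal totals. The 2 were Pcsk1n, an inhibitor of prohormone cleavage, and Dpp6, a potassium channel partner. Iapp, the islet amyloid hormone, was listed at 0 in neural tube and at 331 FPKM in pancreas, and Ins1 was listed at 0 in neural tube and at 213 FPKM in pancreas. Of 6 islet hormone genes, Ins1, Ins2, Ppy and Iapp were listed at 0 in neural tube and Gcg and Ghrl reached 0.354 and 0.922 FPKM, while all 6 ran from 15.0 to 1370 FPKM in pancreas. Sst, the somatostatin gene, which some neurons use as well as delta cells, stood the other way. It was at 145 FPKM in neural tube and 41.0 FPKM in pancreas, a difference of 1.79 that was not called. Of 16 genes for LIM cofactors, E proteins and Id proteins, which bind LIM or basic helix-loop-helix factors or their partners, 4 were called higher in neural tube and 1 in pancreas, with a median of 1.42. With equal totals 8 were called higher in neural tube and 1 in pancreas, without the 50 highest genes in the totals 7 and 1, with the upper quartile 4 and 2, and with a pseudocount of 5 FPKM 2 and 0. Ldb2, a LIM-binding cofactor, was the 1 in pancreas, at 1.08 FPKM in neural tube and 11.4 FPKM in pancreas, and Ldb1 was at 141 FPKM in neural tube and 40.8 FPKM in pancreas.

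**Figure D5:**
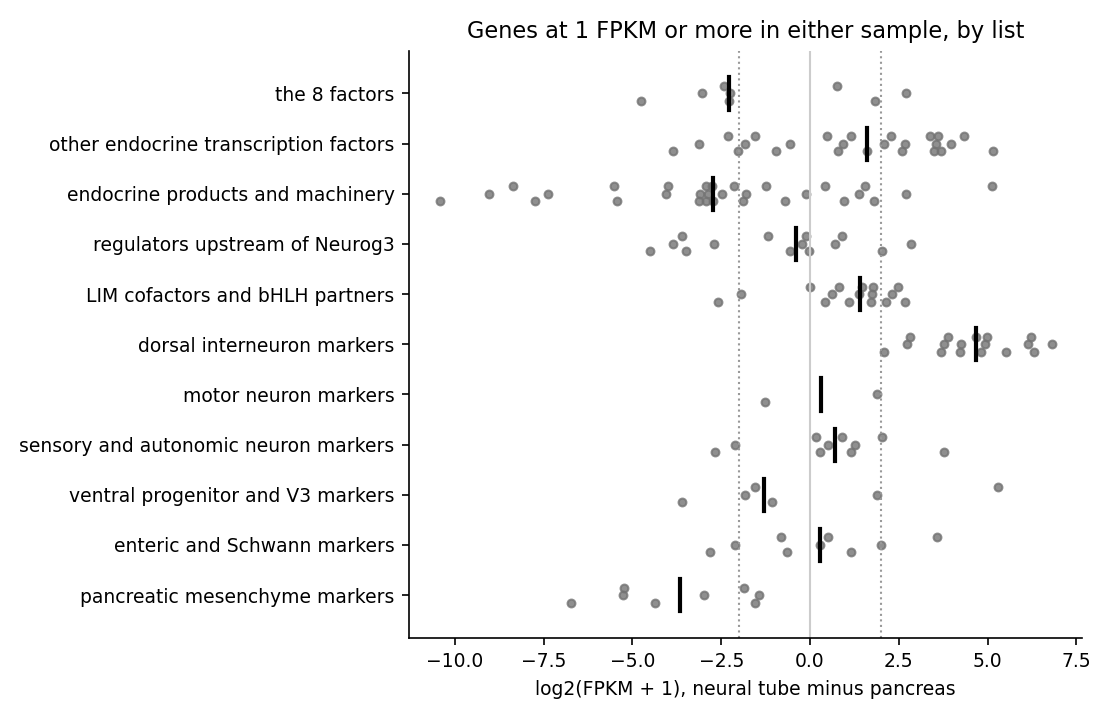
Difference in log2(FPKM + 1), neural tube minus pancreas, of every gene that reached 1 FPKM in one of the samples, by list, with the list's median as a black bar and dotted lines at 2 and -2. The 8 factors spread on both sides of 0 with 5 below -2 and 1 above 2.

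Markers of other cell types, some of which use these factors, are given here beside the values of the factors. The 7 motor neuron markers, whose cells use Isl1, stayed between 0.0335 and 0.720 FPKM in neural tube and at or below 0.757 FPKM in pancreas, with Lhx4 listed at 0 in pancreas, and summed to 2.41 and 1.55 FPKM. Of the sensory and autonomic neuron markers 8 of 9 were found by the symbol used, and 6 reached 1 FPKM in neural tube and 2 in pancreas. These 8 summed to 23.7 FPKM in neural tube and 4.12 FPKM in pancreas. Pou4f1, also a gene of dorsal interneurons, gave 12.8 of the neural tube sum. The marker not found, Drgx, also goes by the symbol Prrxl1. Under that symbol it was at 3.31 FPKM in neural tube and 0.0143 FPKM in pancreas, and these counts and sums leave it out. A wider list of 9 motor neuron markers had 0 genes called, and in a list of 14 for sensory and autonomic neurons 2 were called in each direction among 13 found. The 6 inhibitory dorsal interneuron markers ranged from 28.0 to 112 FPKM in neural tube and stayed at or below 0.539 FPKM in pancreas, with Lbx1 listed at 0. In the wider list of 17 dorsal interneuron genes 16 were called higher in neural tube and 0 in pancreas. Of 9 pan-neuronal genes found among 10, all 9 were higher in neural tube.

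Beside the low Nkx2-2 value of the neural tube, the 4 V3 and ventral progenitor markers summed to 40.9 FPKM there, of which Uncx, expressed in other neurons too, gave 40.2, and to 1.43 FPKM in pancreas. Shh, the highest of the other 3 there, was at 0.436 FPKM in neural tube. A wider ventral list of 8 genes had 1 called in each direction.

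Beside the pancreas value of Isl1, 4 mesenchyme markers summed to 25.7 FPKM in neural tube and 899 FPKM in pancreas, and of 10 in a wider list 0 were called higher in neural tube and 5 in pancreas. All 3 Schwann cell markers were above 1 FPKM in pancreas, with sums of 4.95 FPKM in neural tube and 5.96 FPKM in pancreas. Of 9 enteric and Schwann markers 2 were called in each direction. The 3 acinar markers summed to 0.138 FPKM in neural tube and 26127 FPKM in pancreas, and all 8 pancreatic epithelium markers were called higher in pancreas. The part of any of these cell types in the values of the 8 factors was not tested. Ptf1a, whose enhancer drove the sort, was at 22.5 FPKM in neural tube and 37.1 FPKM in pancreas.

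The 8 genes lie on 5 chromosomes, given here on NCBIM37, which is mm9. Insm1 (chromosome 2, 146047657 to 146050752) and Nkx2-2 (chromosome 2, 147003282 to 147019979) lie within 1 stretch of chromosome 2 but differed in opposite directions, and Neurod1 lies elsewhere on it (79292678 to 79296908). Rfx6 (51397562 to 51450235) and Neurog3 (61595838 to 61597511) are both on chromosome 10. Pax4 is on chromosome 6 (28392334 to 28399353), Isl1 on chromosome 13 (117088478 to 117099896) and Mafa on chromosome 15 (75577273 to 75578352). Mafa and Insm1 are annotated with 1 exon, Neurog3, Neurod1 and Nkx2-2 with 2 in their longest coding transcript, Isl1 with 6, Pax4 with 11 and Rfx6 with 19.

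Nearby coding genes were looked up for each factor. Tspan15, the nearest coding gene beyond Neurog3, was at 2.02 FPKM in neural tube and 7.66 FPKM in pancreas, and Col13a1, on the other side, at 0.383 and 2.21 FPKM. Both neighbours of Mafa stood higher in neural tube, with Rhpn1 at 8.66 against 1.29 FPKM and Zc3h3 at 11.6 against 4.50 FPKM. Nkx2-2 lies between Nkx2-4, listed at 0 in both samples, and Pax1, which was at 3.35 FPKM in neural tube and 0.0449 FPKM in pancreas, opposite to Nkx2-2. The neighbours of Rfx6, Gprc6a and 4933411G06Rik, were at or below 0.108 FPKM in both samples. Those of Pax4 were unlike each other, with Fscn3 at 0.0238 FPKM in neural tube and 0.0502 FPKM in pancreas, and Snd1 at 50.4 FPKM in neural tube and 144 FPKM in pancreas. Neurod1 lies between Itga4, at 0.717 and 1.75 FPKM in neural tube and pancreas, and Ssfa2, at 3.46 and 24.2 FPKM. Insm1 lies between 4930529M08Rik, at 0.3995 and 0.0551 FPKM in neural tube and pancreas, and Ralgapa2, at 4.11 and 2.07 FPKM. Of the genes beside Isl1, Parp8 was at 7.13 and 4.18 FPKM in neural tube and pancreas, and Gm6404 was not used here.

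Overlapping genes make some values less certain, since no source used here says that reads were counted by strand. The opposite-strand gene 2010107G23Rik shares 273 of the 1540 exonic bases of Neurog3 and was at 7.14 FPKM in neural tube and 5.09 FPKM in pancreas. The part of shared reads in the 0.341 FPKM of Neurog3 in neural tube was not tested. Cerkl shares 201 of 2729 exonic bases with Neurod1 on the same strand, at 0.201 FPKM in neural tube and 0.533 FPKM in pancreas. Nkx2-2as, on the other strand, shares 278 of 2875 exonic bases with Nkx2-2, at 0.0183 FPKM in neural tube and 0.237 FPKM in pancreas.

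Some genes stand on several lists, such as Pdx1, Lmx1b and Pou4f1. Among 200 listed genes, the one with values most like each factor was found by its distance in the plane of the 2 log2(FPKM + 1) values, which rests on 2 samples only. Pax4 lay nearest to Rfx6, at a distance of 0.10, and Rfx6 nearest to Nkx2-3, at 0.06. Neurog3 lay nearest to Gata4 (0.39), Nkx2-2 to the mesenchyme gene Barx1 (0.10) and Isl1 to Pdgfrb, a gene of pericytes (0.27). Neurod1 lay nearest to Rfxap (0.13), Insm1 to Tox3 (0.20) and Mafa to Lmo1 (0.37).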

How the data were processed

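RNA was sequenced from sorted E12.5 neural tube cells and whole E15.5 pancreas. Values are FPKM as deposited by the authors, 1 per gene and tissue, although the labels name 2 libraries for each. Per the submitters' processing notes, CASAVA, TopHat, TopHat2 2.0.4 and Cuffdiff 2.0.2 were used, with build mm9. Per the labels' protocols, a column kit gave RNA from the sorted cells and Trizol from pancreas, and an mRNA-seq preparation is named for both tissues and a TruSeq one for pancreas. The annotation used for counting is not given in the sources used here. The other 16 of 18 samples, all of chromatin, are not analysed here.

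Differences, calls, shares and sums were computed with Python 3.11.15, pandas 2.3.3 and numpy 2.4.6, with a pseudocount of 1 FPKM. List medians used genes that reached 1 FPKM in neural tube or pancreas. The rule of size was run on simulated data, with differences set well away from its threshold in genes of higher mean level than the 8 factors. That run does not show how the rule does near its threshold or for genes as low as these. The 8 factors and the gene lists were chosen with earlier results of these data known. Named genes were the 8 factors, family relatives at 5 FPKM or more, up to 4 genes a list past the rule with the largest differences, the nearest listed gene and the neighbours. Others, such as Sst, Myt1, Hes1, Dll1, Notch1, Isl2, Insm2, Ldb1, Nkx2-3 and further markers, were named after their values were seen. Some that the rule names are given only by list or are not reported here. The comparison of proteins that was planned was not made.

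Read depth is not given in the sources used here. Among 8045 genes with 1 transcript in GENCODE M1, the commonest small step of the values, multiplied by transcript length, gave a fragment at 1 kb as about 0.0424 FPKM in neural tube and 0.0246 in pancreas, so 3 fragments correspond to 0.127 and 0.0737 FPKM. The steps held 84 and 132 genes, so fragment numbers are approximate and no interval is given.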

Additional observations from a re-analysis of the deposited data

How the results depend on the processing

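In all, 10 settings were changed singly: pseudocounts of 0.1 or 5 FPKM, no minimum or a minimum of 10 FPKM, 4 rescalings, and thresholds of 2 and 8 times. The number of factors higher in neural tube, 1 as reported, was 0 with a pseudocount of 5, a minimum of 10 FPKM or 8 times, and 2 with equal totals, equal totals without the 50 highest genes, or 2 times. The number higher in pancreas, 3 as reported, was 1 with a pseudocount of 5, 5 with no minimum, and 2 with a minimum of 10 FPKM, equal totals, equal totals without the 50 highest genes, or 8 times. Each of the 8 factors kept its sign under the 4 rescalings, the only settings that could change a sign. Under all 10 settings Neurog3 and Neurod1 kept their call or lack of one, and Isl1 had the most changes, 4. Over all genes that reached 1 FPKM in both tissues the median difference, 0.02 as deposited, moved to 0.57 with equal totals and to 0.34 without the 50 highest genes. Over the whole table the calls toward neural tube numbered 1106, those toward pancreas 1278, and with equal totals 1772 and 882. These counts were 512 and 600 with a pseudocount of 5, 2494 and 2690 at 2 times, and 546 and 653 at 8 times. With equal totals the median of the Maf relatives, -0.50 as deposited, turned to 0.0095, and that of the genes upstream of Neurog3, -0.39 as deposited, to 0.32, as that rescaling moved all genes toward neural tube. The counts called on the sensory and autonomic, ventral, and enteric and Schwann lists, at most 2 in each direction as reported, changed under several settings and went to 0 in at least 1 direction with a pseudocount of 5. No paired analysis was possible because each tissue has 1 value per gene, and for the same reason no replicate could be left out. Low values limit Pax4, Neurog3 and Nkx2-2 in neural tube, at about 1.1, 12 and 12 fragments.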
